A study of Rattus norvegicus with 6 samples.

Results

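Interferon-stimulated genes outside the Ifit family and the histocompatibility genes were lower in injured rat spinal cord given electrical stimulation than in injured cord without it. The list holds 47 gene symbols of transcription factors, nucleic acid sensors, GTPases and antiviral effectors, and genes were taken where the symbol in the gene table was the same. The table held 46 of them among its 32623 genes, and Oas1b was not analysed here. Genes averaging 0.5 FPKM or more across the 6 libraries were tested, which kept all 46 and 15750 genes in total. FPKM counts sequenced fragments relative to gene length and to library size.

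Spinal cord was taken from female Wistar rats, 8 weeks old, with a modelled cord injury. The injury was shared by both groups, 3 libraries with electrical stimulation (ES) and 3 without it (SCI), and uninjured cord was not analysed here. The sources used here do not give the kind of injury, the cord segment, the electrodes or the time after injury. Nothing in the labels ties a library to its own animal. P-values therefore cover the scatter among the libraries at hand and nothing wider, and that scatter may be technical.

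Interferons are secreted proteins that warn cells of infection or damage. Type I interferons bind the receptor pair of Ifnar1 and Ifnar2, whose kinases Jak1 and Tyk2 phosphorylate Stat2. With Irf9 it acts in a complex that binds the interferon-stimulated response element, a short DNA motif near the start of many of the genes described here. Interferon gamma acts through Ifngr1, Ifngr2, Jak1 and Jak2, and its signal ends at another motif, the gamma-activated sequence. In the central nervous system microglia, astrocytes and vessel cells can all respond to interferon.

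Facts of the libraries bear on all that follows. Taking the smallest common step of low transcript values as 1 read pair, depth was estimated at 13900000 to 16100000 read pairs in ES and 16300000 to 18600000 in SCI. Over the genes tested, log2(FPKM + 1) of libraries of the same group correlated at 0.983 to 0.986, and of different groups at 0.962 to 0.965. The spinal cord label was met by 6 of 6 neuronal and 6 of 6 oligodendrocyte markers past the filter. In the test over all genes 4341 were lower in ES (27.6%) and 2747 were higher (17.4%), 45% in either direction. These splits moved with the scaling. Quantile normalization gave 3257 lower and 3414 higher genes, centring on the median 2975 and 4021, and setting all totals equal 5590 and 2070. The listed genes varied little between libraries of a group, with a median coefficient of variation of 3.41% in ES and 5.37% in SCI.

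Of the 46 interferon-stimulated genes 40 fell with stimulation (87.0%, beside 27.6% of all genes tested) and 6 did not pass the test. The test was limma on log2(FPKM + 1), with p-values adjusted over all 15750 genes and a threshold of 0.05. None was called higher in ES (0 of 46, beside 17.4% of all genes), and at an unadjusted p under 0.05 limma gave 1 higher gene, Ifitm2. The median log2 change over the 46 genes was -0.55, beside -0.06 over all genes tested, and the 46 ranged from -1.29 to 0.09. In 41 of the 46 every ES library lay below every SCI library, beside 34.6% of all genes. Falls were moderate in size: 24 of the 40 were at least 1.5-fold in mean FPKM and 6 at least 2-fold, namely Irf7, Oasl, Mx2, Isg15, Herc6 and Isg20. A log2 change of -1 or less was called in 4 of the 46, beside 1.83% of all genes. Summed over the 46 genes, the level was 2133 to 2155 FPKM in ES and 3129 to 3194 in SCI. This is 0.373% to 0.376% and 0.576% to 0.588% of all gene FPKM. A few abundant genes carry much of that sum. Without the 3 Ifitm genes it was 1110 to 1120 FPKM in ES and 1763 to 1779 in SCI. In bulk tissue, fewer cells of a type and less RNA per cell cannot be told apart.

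**Figure D1:**
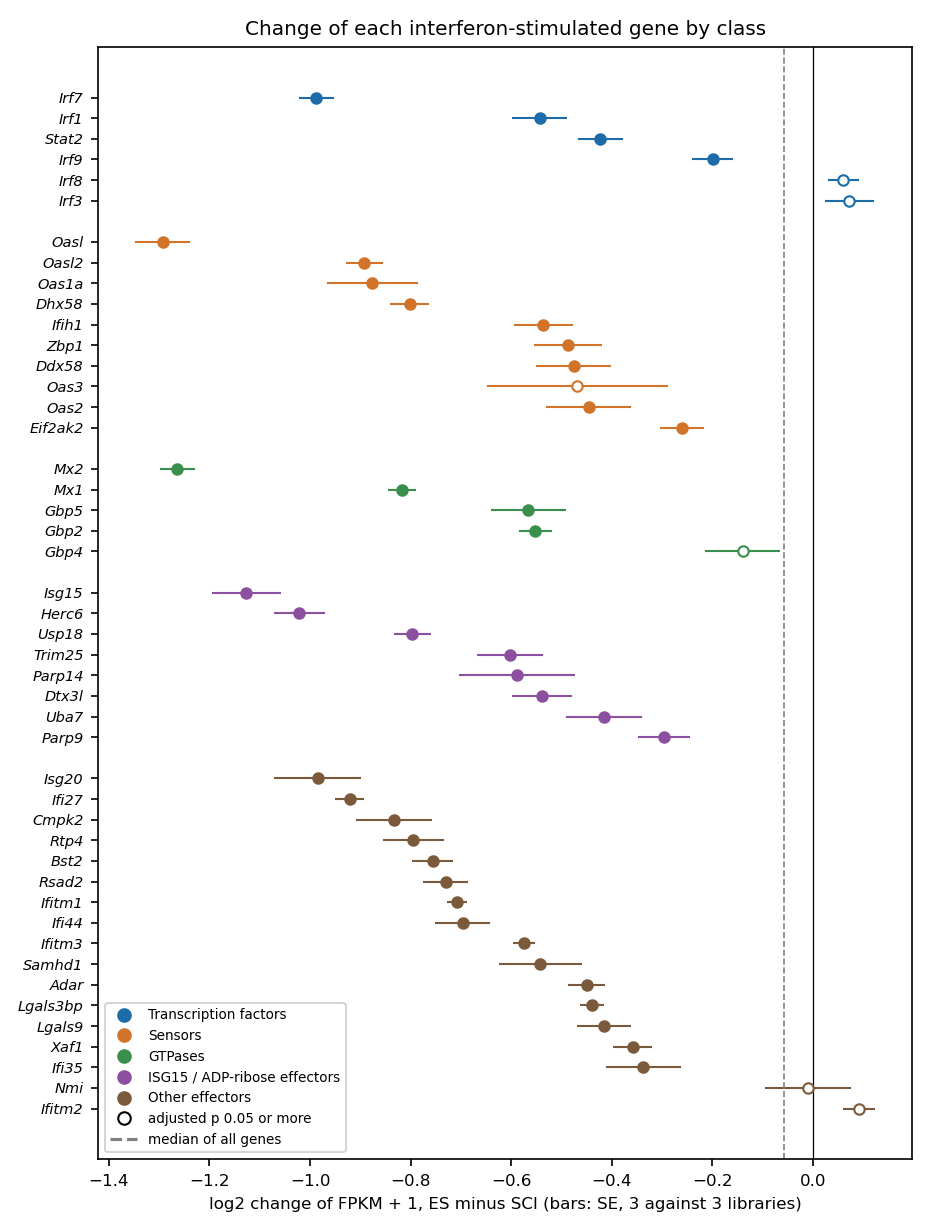
The log2 change of FPKM + 1 (ES minus SCI) is on the horizontal axis, with 1 point per gene in rows grouped by class, bars for the SE, filled points for genes with an adjusted p under 0.05, open points for the others and a dashed line at the median of all genes. All 40 filled points lie left of 0, and the 6 open points are Irf3, Irf8, Oas3, Gbp4, Nmi and Ifitm2.

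**Figure D2:**
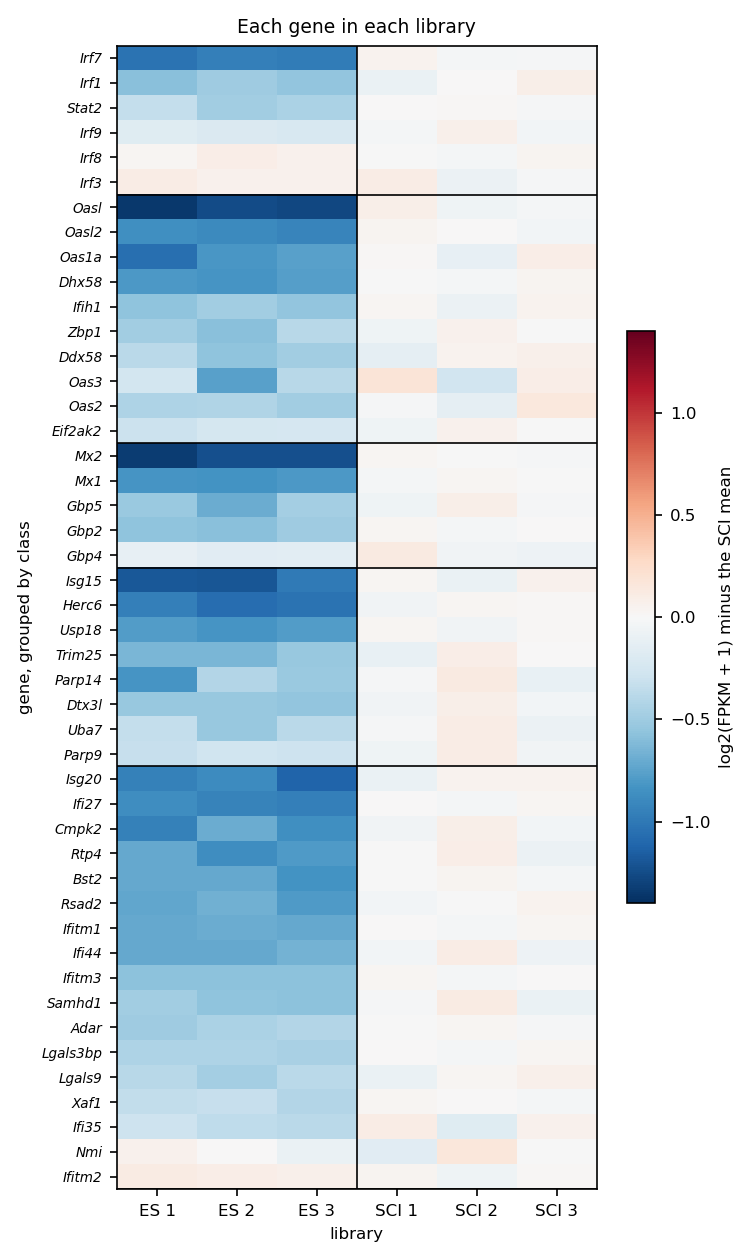
Each row is a gene, each column a library, and the colour is log2(FPKM + 1) minus the gene's mean over the SCI libraries. Most rows are blue in the 3 ES libraries alike and near white in the 3 SCI libraries, and Irf8, Irf3, Nmi and Ifitm2 stay near white throughout.

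Promoter windows show what many of these genes share in sequence. RefSeq windows of assembly GRCr8, from 250 bases before to 50 bases after the annotated start, were matched for 36 of the 46 genes by symbol or gene identifier. The core of the interferon-stimulated response element was searched as GAAANNGAAA on both strands. It was present in 22 of the 36 windows (61.1%), against 3.92% of all 33469 RefSeq windows of the same length. The core of the gamma-activated sequence, TTCNNNGAA, which reads the same on both strands, was present in 8 of 36 (22.2%) against 8.87% of all windows. Among genes that fell, 18 of 30 windows held the response element core, and among those not called 4 of 6. For the gamma-activated core these counts were 7 of 30 and 1 of 6, the latter being Irf8 with 2 matches. Windows without the response element core include those of Oasl, which fell most of the 46 genes, Mx1 and Herc6. The matches are letters in a window and not measured binding. Windows are shown for Irf7, which fell most of the transcription factors, for Oas1a, which holds 2 matches, and for the neighbours Ifitm3, which fell, and Ifitm2, which did not pass. Letters in capitals are the response element core, and each window is written along the gene's own strand.
Irf7, chr1:205799974-205800273, minus strand: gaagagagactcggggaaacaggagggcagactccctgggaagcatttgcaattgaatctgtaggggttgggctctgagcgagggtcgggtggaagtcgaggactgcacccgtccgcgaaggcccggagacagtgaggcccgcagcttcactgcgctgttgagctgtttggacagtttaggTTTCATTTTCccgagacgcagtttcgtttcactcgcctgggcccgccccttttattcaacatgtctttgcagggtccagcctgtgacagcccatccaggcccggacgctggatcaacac
Oas1a, chr12:41330216-41330515, plus strand: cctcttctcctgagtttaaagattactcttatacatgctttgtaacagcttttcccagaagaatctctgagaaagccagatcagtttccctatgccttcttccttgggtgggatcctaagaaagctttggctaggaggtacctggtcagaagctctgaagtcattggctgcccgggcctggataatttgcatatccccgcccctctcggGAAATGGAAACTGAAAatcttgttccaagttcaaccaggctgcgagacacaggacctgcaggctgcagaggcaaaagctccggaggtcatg
Ifitm3, chr1:205541709-205542008, minus strand: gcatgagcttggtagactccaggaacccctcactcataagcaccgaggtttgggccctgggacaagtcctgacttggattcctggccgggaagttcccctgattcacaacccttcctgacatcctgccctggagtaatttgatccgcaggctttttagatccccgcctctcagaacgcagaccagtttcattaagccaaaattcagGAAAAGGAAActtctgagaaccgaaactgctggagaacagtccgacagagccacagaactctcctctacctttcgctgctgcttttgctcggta
Ifitm2, chr1:205482299-205482598, minus strand: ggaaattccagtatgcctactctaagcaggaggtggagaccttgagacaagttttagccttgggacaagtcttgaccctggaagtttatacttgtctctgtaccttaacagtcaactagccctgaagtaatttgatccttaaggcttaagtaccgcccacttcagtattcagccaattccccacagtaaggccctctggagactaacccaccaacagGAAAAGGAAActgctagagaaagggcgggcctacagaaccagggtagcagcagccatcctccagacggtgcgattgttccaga
In Irf7 the match lies on the other strand, TTTCATTTTC, with its first letter 69 bases before the start. Oas1a holds a pair of overlapping matches, GAAATGGAAA and GAAACTGAAA, which begin 41 and 35 bases before the start. Ifitm3 and Ifitm2 hold the same match, GAAAAGGAAA, 44 and 33 bases before their starts, and of this pair the window of Ifitm3 alone also holds a gamma-activated core, TTCTGAGAA. Irf1, the factor induced by interferon gamma, holds no response element core in this window and a gamma-activated core, TTCCCCGAA, 142 bases before the start.

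Among the 6 transcription factors 4 fell (66.7%, beside 27.6% of all genes tested) and 2 did not pass, with a median log2 change of -0.31. Values by library are in the order of replicates 1 to 3 throughout. Irf7, which amplifies the type I response and is itself induced by it (chromosome 1, 214248837 to 214252456 in the coordinates of the files, for which the sources used here name no build), stood at 41.0, 43.6 and 42.9 FPKM in ES and 87.9, 83.4 and 84.4 in SCI. The groups were far apart, and the mean fell 2.01-fold, from 85.2 ± 2.37 to 42.5 ± 1.31 FPKM (SD, n = 3; log2 change -0.99 ± 0.03 SE, adjusted p = 5.31e-06). Irf1 was at 12.5, 13.3 and 12.8 FPKM in ES and 18.0, 19.2 and 20.4 in SCI, a 1.49-fold fall (adjusted p = 0.000392). Stat2, which carries the type I signal to the nucleus, read 28.1, 25.1 and 26.1 FPKM in ES against 35.9, 36.1 and 35.3, a 1.35-fold fall (adjusted p = 0.000479). Irf9, the DNA-binding subunit of that complex, moved least of those that fell. Its values were 32.5, 31.8 and 31.5 FPKM in ES and 35.9, 38.8 and 35.7 in SCI, 1.15-fold (log2 change -0.20 ± 0.04, adjusted p = 0.00761), and after median centring it did not pass (adjusted p = 0.0676).

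The remaining transcription factors did not pass and had small positive changes. Irf3, which is made constitutively and activated by sensors rather than induced, stood at 67.6, 65.4 and 65.3 FPKM in ES and 67.4, 59.3 and 61.9 in SCI, and the groups overlapped. Its log2 change was 0.07 ± 0.05 (adjusted p = 0.267), and it passed as higher after median centring (adjusted p = 0.0337) and without SCI replicate 1 (adjusted p = 0.0362), in a range of 0.0337 to 1.000 over all alternatives. Irf8, a factor of myeloid and microglial development, was at 49.0, 51.4 and 50.3 FPKM in ES and 47.8, 47.3 and 49.2 in SCI. Its groups also overlapped (log2 change 0.06 ± 0.03, adjusted p = 0.153), and it passed as higher after median centring (adjusted p = 0.00758, range 0.00758 to 0.787).

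Sensors detect foreign or misplaced nucleic acid in the cytoplasm, and 9 of the 10 in the table fell, with a median log2 change of -0.51. The RIG-I-like receptors all fell. Dhx58 (LGP2), which tunes the other members, fell 1.81-fold from 19.2 ± 0.469 to 10.6 ± 0.243 FPKM. Ifih1 (MDA5), a sensor of long double-stranded RNA, fell 1.55-fold to 4.44 ± 0.151 FPKM, and Ddx58 (RIG-I), which senses uncapped RNA ends, 1.44-fold to 8.70 ± 0.638. The adjusted p-values of the 3 were 1.91e-05, 0.000564 and 0.00265. Zbp1, a sensor of Z-form nucleic acid that can trigger necroptosis, fell 1.47-fold to 5.63 ± 0.444 FPKM. Eif2ak2 (PKR), a kinase that halts translation on double-stranded RNA, had the smallest change of the class, with 18.0, 18.7 and 18.9 FPKM in ES and 21.5, 23.5 and 22.3 in SCI. The groups did not overlap, and the fall was 1.21-fold (log2 change -0.26 ± 0.04, adjusted p = 0.00332).

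The oligoadenylate synthetase family, which responds to double-stranded RNA, held the largest sensor changes. Oasl (chromosome 12, 47444104 to 47456894) read 6.63, 7.13 and 7.00 FPKM in ES and 19.6, 17.6 and 18.1 in SCI. Its 2.66-fold fall was the largest among the 46 genes, with a log2 change of -1.29 ± 0.05 (adjusted p = 9.86e-06). Its neighbour Oasl2, 12.7 kb away, was at 17.8, 17.3 and 16.9 FPKM against 34.0, 33.1 and 32.1, a 1.91-fold fall (adjusted p = 9.42e-06). Oas1a stood at 9.26, 11.1 and 11.5 FPKM in ES and 20.5, 18.7 and 21.8 in SCI, also 1.91-fold (adjusted p = 0.000441). Rats carry several close copies of Oas1, so the value of this copy depends on how reads were divided among them. Oas2 was low, at 2.77, 2.79 and 2.62 FPKM against 3.99722, 3.66 and 4.61 (log2 change -0.45 ± 0.08, adjusted p = 0.00588). Oas3 was the sensor that did not pass, with 0.652, 0.167 and 0.508 FPKM in ES and 1.24, 0.637 and 1.10 in SCI. Between 8 and 62 estimated read pairs per library stood behind it, the groups overlapped, and its log2 change was -0.47 ± 0.18 (adjusted p = 0.0762). Without SCI replicate 2 it passed as lower (adjusted p = 0.0411, range 0.0245 to 0.192 over the alternatives).

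The GTPases assemble into coats around virus particles or pathogen vacuoles. Here 4 of 5 fell (80.0%, beside 27.6% of all genes tested), with a median log2 change of -0.57. Mx2, the cytoplasmic Mx protein of rats (chromosome 11, 38035450 to 38059950), was at 45.4, 48.7 and 48.7 FPKM in ES and 118, 115 and 114 in SCI. The groups were far apart, and the 2.43-fold fall had a log2 change of -1.26 ± 0.04 (adjusted p = 2.83e-06). Mx1, the nuclear Mx protein of rats, 120.5 kb away, read 44.4, 44.1 and 45.2 FPKM against 77.7, 81.0 and 79.1. It fell 1.78-fold (adjusted p = 4.45e-06), and the groups were apart here too. Guanylate-binding proteins form a cluster on chromosome 2. Gbp2 stood at 41.5, 40.9 and 43.5 FPKM in ES and 63.0, 60.8 and 62.1 in SCI, a 1.48-fold fall (adjusted p = 3.99e-05), and Gbp5 at 6.70, 5.80 and 6.92 against 9.55, 10.7 and 9.89, 1.55-fold (adjusted p = 0.00128). Gbp4, which lies between them, did not pass. Its values were 3.25, 3.11 and 3.14 FPKM in ES and 3.99, 3.44 and 3.36 in SCI, which do not overlap (log2 change -0.14 ± 0.07, adjusted p = 0.172).

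Isg15 is a ubiquitin-like protein that is attached to other proteins. All 8 genes of its conjugation and of the ADP-ribosylation enzymes beside it fell (beside 27.6% of all genes tested). Their median log2 change was -0.59. Isg15 (chromosome 5, 173624310 to 173626248) read 25.3, 25.1 and 29.1 FPKM in ES and 60.2, 55.1 and 61.6 in SCI. It fell 2.23-fold, from 59.0 ± 3.42 to 26.5 ± 2.23 FPKM (log2 change -1.13 ± 0.07, adjusted p = 4.54e-05). The enzymes of its attachment and removal on the list also fell, and differences between their changes were not tested. Uba7, which activates Isg15, was at 7.29, 6.23 and 7.08 FPKM against 9.36, 10.2 and 8.89 (1.38-fold, adjusted p = 0.00482). Herc6, the ligase that attaches it in mouse, was at 5.97, 5.46 and 5.65 against 12.1, 12.9 and 12.8 (2.21-fold, adjusted p = 2.12e-05). Usp18, which removes it and also damps the type I receptor, was at 17.2, 16.6 and 17.2 against 30.9, 29.3 and 30.7 (1.78-fold, adjusted p = 1.49e-05). In each of the 3 the groups were apart. Trim25, a ubiquitin ligase of the RIG-I pathway, fell 1.58-fold to 8.00 ± 0.374 FPKM.

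Parp9 and its partner Dtx3l sit 1.13 kb apart on opposite strands of chromosome 11 and encode a complex that modifies histones and aids DNA repair. Parp9 had the smallest change of this class, at 24.6, 25.3 and 25.2 FPKM in ES and 29.6, 33.5 and 29.9 in SCI (1.24-fold, adjusted p = 0.00401). Dtx3l stood at 4.01, 4.04 and 3.94 FPKM against 6.03, 6.71 and 6.06 (1.57-fold, adjusted p = 0.000579). Whether the changes of these neighbours differ from each other was not tested. Parp14, a mono-ADP-ribosyltransferase in the same region, fell 1.55-fold to 8.65 ± 1.38 FPKM.

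Of the other 17 effectors 15 fell (88.2%, beside 27.6% of all genes tested) and 2 did not pass, with a median log2 change of -0.57. The Ifitm genes, membrane proteins that hinder the fusion of virus and cell membranes, were among the most abundant of the 46 and were not all called. Ifitm1 read 438, 442 and 437 FPKM in ES and 718, 706 and 728 in SCI, a 1.63-fold fall (log2 change -0.71 ± 0.02, adjusted p = 3.02e-06). Ifitm3 was at 228, 229 and 229 FPKM against 347, 334 and 342, a 1.49-fold fall (adjusted p = 6.66e-06). Ifitm2, 15.4 kb from Ifitm1 on chromosome 1, stood at 369.6, 362 and 357 FPKM in ES and 350.3, 326 and 345 in SCI. Every ES library was above every SCI library, as in 21.9% of all genes, but the log2 change of 0.09 ± 0.03 did not pass (adjusted p = 0.0572). It passed as higher after quantile normalization (adjusted p = 0.0275), after median centring (adjusted p = 0.00437) and without SCI replicate 1 (adjusted p = 0.0439), in a range of 0.00437 to 0.667. Ifitm copies are alike in sequence, so reads can be divided between them.

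Further abundant effectors fell by smaller to larger steps. Ifi27, a small membrane protein strongly induced by type I interferon, was at 200.2, 191 and 189 FPKM in ES and 368, 359.7 and 374 in SCI (1.90-fold, adjusted p = 4.12e-06). Bst2 (tetherin), which holds budding virus at the cell surface, was at 65.7, 65.9 and 60.5 FPKM against 108, 111 and 107 (1.70-fold, adjusted p = 2.59e-05). Lgals3bp, a secreted glycoprotein that binds galectin, read 155, 154 and 152 FPKM against 209, 204 and 212 (1.36-fold, adjusted p = 2.68e-05). All 3 were without overlap.

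Several effectors act on nucleic acids or nucleotides. Isg20, an exonuclease, stood at 2.66, 2.86 and 2.24 FPKM in ES and 5.64, 6.31 and 6.30 in SCI, a 2.35-fold fall on 32 to 102 estimated read pairs per library (adjusted p = 0.000211). Cmpk2, a nucleotide kinase of mitochondria, was at 7.14, 8.67 and 7.68 FPKM against 14.2, 15.6 and 14.3 (1.88-fold, adjusted p = 0.000237). Its neighbour Rsad2 (viperin), which makes a chain-terminating nucleotide, fell 1.70-fold to 16.8 ± 0.767 FPKM. Samhd1, which breaks down deoxynucleotides, fell 1.77-fold from a low 2.60 ± 0.256 FPKM. Adar, the adenosine deaminase that edits double-stranded RNA, fell 1.39-fold from 24.0 ± 0.354 to 17.3 ± 0.546 FPKM, and the table holds 1 transcript of it, so its interferon-induced and constitutive forms were not separated. The falls of Rtp4, Ifi44, Xaf1 and Lgals9 ranged from 1.30-fold for Xaf1 to 1.79-fold for Rtp4.

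Nmi and Ifi35 encode partner proteins that bind each other, and they differed in their calls. Ifi35 was at 21.9, 20.9 and 20.6 FPKM in ES and 29.1, 23.9 and 28.2 in SCI, a 1.28-fold fall (log2 change -0.34 ± 0.07, adjusted p = 0.0109). Nmi was at 17.1, 16.4 and 15.3 FPKM against 14.6, 18.4 and 16.3, with overlapping groups and a log2 change of -0.01 ± 0.09 (adjusted p = 0.943). Whether the pair's changes differ was not tested.

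**Figure D3:**
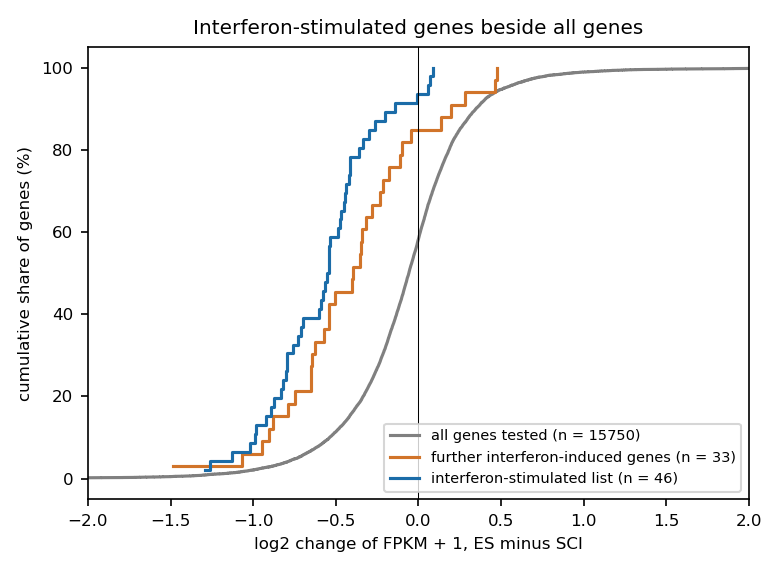
The curves give the cumulative share of genes (vertical axis, %) at or below each log2 change of FPKM + 1, ES minus SCI (horizontal axis), for all 15750 genes tested, the 46 listed genes and 33 further interferon-induced genes. The medians are -0.06, -0.55 and -0.39.

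Position and level were also compared. Of 12 pairs of listed genes that are next to each other within 500 kb, 11 had negative changes in both members, and the exception was Ifitm2 with Ifitm1. As 40 of the 46 genes fell wherever they lie, this count says nothing of position. Neighbouring pairs among all genes were not counted. Across the 46 genes the log2 change had a Spearman rho of -0.11 with the mean SCI level, a description over genes that share libraries and are not independent. Levels were spread widely: 11 of the 46 genes lay above the 90th percentile of the genes tested and 10 below the 50th.

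The transcript table held 68 transcripts of these genes, of which 56 passed the same filter. By limma over all 19223 transcripts tested 43 of them fell (beside 19.5% of all transcripts), 0 were called higher (beside 12.8%) and 13 did not pass. At an unadjusted p under 0.05 limma gave 1 higher, the transcript of Ifitm2. Relative use of transcripts could be tested with diffSplice of limma in 6 genes, and 3 were called (beside 13.3% of the 2589 genes with at least 2 transcripts tested).

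Ifi44, a cytoplasmic protein of the response, was the clearest case. Its transcript of 1741 bases and 9 exons read 3.66, 3.11 and 5.05 FPKM in ES and 22.6, 21.1 and 19.7 in SCI (log2 change -2.18 ± 0.15, adjusted p = 0.000310). The transcript of 2922 bases and 8 exons read 12.2, 12.5 and 12.0 FPKM against 10.1, 13.6 and 11.3 (log2 change 0.07 ± 0.11, adjusted p = 0.659). The shorter form therefore held 19.96% to 29.6% of the gene's transcript FPKM in ES and 60.7% to 69.1% in SCI. The test of use gave an adjusted p of 7.28e-05, between 4.86e-05 and 0.00421 over the alternatives. At the level of the gene Ifi44 fell 1.67-fold from 24.2 ± 1.67 to 14.5 ± 0.371 FPKM. The deposited gene values are not the sums of these transcript values, so the sizes of the 2 levels are not alike.

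Mx2 also shifted in use, with an adjusted p of 0.000968 (0.00109 to 0.0388 over the alternatives). Its transcript of 2427 bases stood at 28.0, 33.5 and 29.6 FPKM in ES and 90.1, 95.6 and 89.2 in SCI, and that of 2553 bases at 24.5, 23.3 and 27.0 against 47.5, 39.1 and 44.0. Both fell, with log2 changes of -1.57 ± 0.07 and -0.78 ± 0.09, and the share of the 2427-base form was 51.6% to 58.1% in ES and 64.3% to 69.9% in SCI. Lgals9, a galectin, was called at an adjusted p of 0.0491, a call that was lost with a pseudocount of 0.1 FPKM and without any 1 of 5 libraries (0.0251 to 0.359 over the alternatives). Fragments shared by overlapping transcripts are divided by estimation, which adds to the error of single transcripts.

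**Figure D4:**
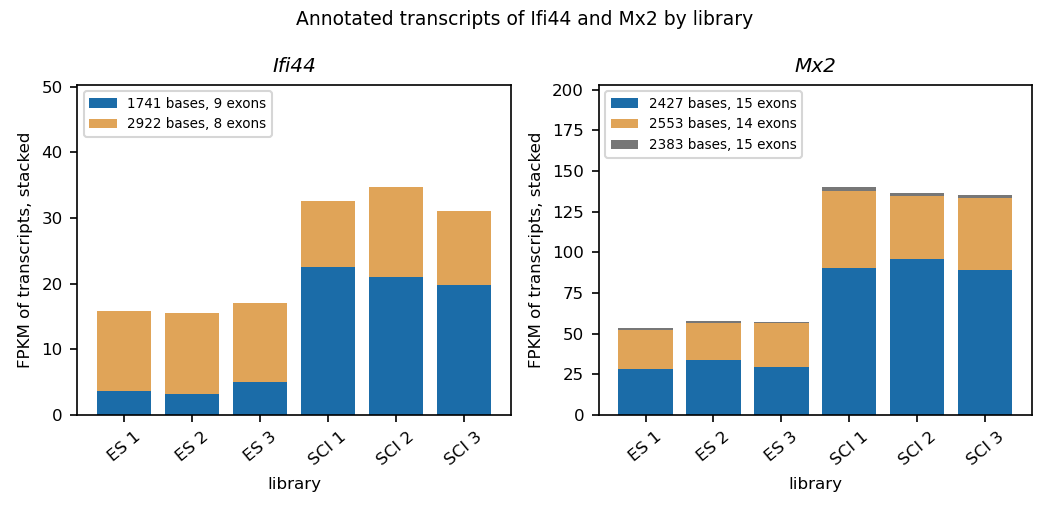
Stacked bars give the FPKM of each annotated transcript of Ifi44 (left) and Mx2 (right) in each of the 6 libraries, on linear axes that start at 0. The 1741-base form of Ifi44 is 3.11 to 5.05 FPKM in ES and 19.7 to 22.6 in SCI, while its 2922-base form is 10.1 to 13.6 in all libraries.

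Other genes of the pathway were taken from lists of ligands, receptors, kinases, sensing adaptors, feedback inhibitors and further target genes, 71 of which passed the filter. Of these 42 fell (59.2%, beside 27.6% of all genes), 10 rose (beside 17.4% of all genes) and 19 did not pass. The 12 interferon ligand genes all lay below the filter. Ifng, which encodes interferon gamma, and Ifna1, Ifna2, Ifna11, Ifna16l1, Ifnk, Ifnl1 and Ifnl3 were listed at 0 in all 6 libraries. Ifnb1 was listed above 0 in 1 ES library, at 0.0815 FPKM, and in 1 SCI library, at 0.213. Ifna4 read 0.0189 FPKM in ES replicate 2 and 0.215 in SCI replicate 1, and Ifna5 0.104 in SCI replicate 2. Ifne read 0.126 FPKM in ES replicate 1, and 0.423 and 0.123 in SCI replicates 2 and 3. These genes were at 0 in the libraries not named. The alpha genes have near-identical copies and short transcripts, so at this depth a low level cannot be told from none.

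Receptor genes did not move together. Among the 6, 2 fell (33.3%, beside 27.6% of all genes), 2 rose (beside 17.4% of all genes) and 2 were not called. Ifnar2, the signalling chain of the type I receptor, read 16.5, 17.1 and 17.1 FPKM in ES and 21.8, 21.0 and 20.4 in SCI (1.25-fold lower, adjusted p = 0.00112). Ifnar1, its partner, stood at 34.9, 33.2 and 33.6 FPKM against 34.2, 35.7 and 36.1, with overlap (adjusted p = 0.231). Ifngr1, the ligand-binding chain of the interferon gamma receptor, rose from 89.4, 87.5 and 87.4 FPKM in SCI to 139, 139 and 143 in ES (log2 change 0.66 ± 0.02, adjusted p = 6.22e-06). Ifngr2, the other chain, fell from 31.9 ± 0.712 to 28.6 ± 1.56 FPKM (adjusted p = 0.0336). Il10rb, a chain shared with the interleukin 10 and lambda receptors, rose from 30.7 ± 0.709 to 35.4 ± 1.41 FPKM (adjusted p = 0.00639), and Ifnlr1, the lambda chain, was at 1.96 ± 0.101 against 1.55 ± 0.237 (adjusted p = 0.1004).

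The kinases were not called. Jak1 stood at 46.7 ± 1.85 FPKM in ES and 45.7 ± 1.05 in SCI, Jak2 at 13.7 ± 0.281 and 13.6 ± 1.13, and Tyk2 at 14.2 ± 0.274 and 13.7 ± 0.247 (adjusted p from 0.319 to 0.883). Stat3, which mainly serves interleukin 6 family receptors, fell 1.14-fold to 43.0 ± 0.307 FPKM (adjusted p = 0.00195).

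**Figure D5:**
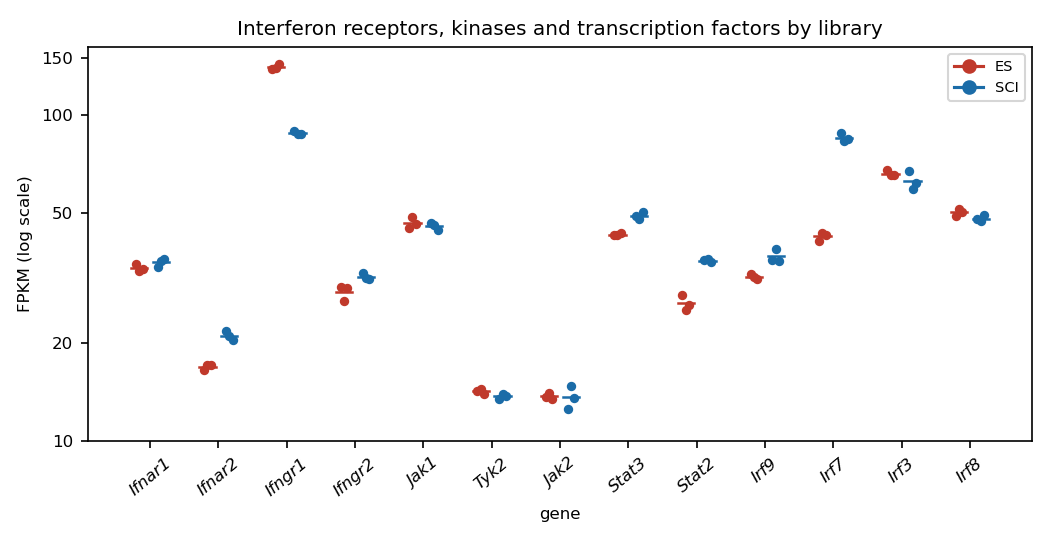
FPKM of each library (points, log axis) and group means (bars) are shown for receptor, kinase and transcription factor genes, ES in red and SCI in blue. Ifngr1 lies higher in ES at 139 to 143 FPKM, Irf7, Stat2 and Ifnar2 lie lower, and Jak1, Jak2, Irf3 and Irf8 overlap between groups.

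Of 11 genes tested that carry the signal from sensors to interferon production 3 fell (27.3%, beside 27.6% of all genes) and 4 rose (17.4% of all genes rose), so the share that fell was that of all genes. Mavs, the mitochondrial adaptor of RIG-I and MDA5, fell from 11.7 ± 0.925 to 9.45 ± 0.0443 FPKM (adjusted p = 0.00972), and Traf3, a ubiquitin ligase of the same route, from 4.96 ± 0.334 to 3.46 ± 0.269 (adjusted p = 0.00464). Ikbke, a kinase that phosphorylates Irf3 and Irf7, rose from 9.82 ± 0.186 to 13.1 ± 0.288 FPKM (adjusted p = 0.000493). Of 8 feedback inhibitors 5 fell (62.5%, beside 27.6% of all genes) and 2 rose (beside 17.4% of all genes). Trex1, a nuclease that clears stray DNA, fell from 26.6 ± 0.843 to 17.3 ± 1.16 FPKM (adjusted p = 0.000245) and Nlrc5, a regulator of histocompatibility genes, from 1.98 ± 0.141 to 1.14 ± 0.0184 (adjusted p = 0.00294). Ptpn6, a phosphatase of blood and myeloid cells, rose from 34.9 ± 1.27 to 51.6 ± 0.615 FPKM (adjusted p = 4.98e-05). Of 5 other genes tested in the Irf group 2 fell (beside 27.6% of all genes) and 0 rose (beside 17.4% of all genes). Those that fell were the co-repressor genes Irf2bp1 and Irf2bp2. The Irf genes themselves, Irf2, Irf4 and Irf5, did not pass by limma (adjusted p = 0.0833, 0.497 and 0.142).

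Further interferon-induced genes outside the list mostly fell. Of 33 tested 25 fell (75.8%, beside 27.6% of all genes) and 2 rose (beside 17.4% of all genes), with a median log2 change of -0.39. Slfn4 and Slfn5, Schlafen genes of immune cells, fell 1.86-fold and 1.98-fold to 42.3 ± 0.740 and 16.1 ± 0.832 FPKM. Rnf213, a large ubiquitin ligase, fell 2.26-fold from 15.3 ± 0.340 to 6.77 ± 0.0558 FPKM. The pair that rose, named after their values were seen, were Ifi30, a lysosomal thiol reductase of antigen-presenting cells (247 ± 5.21 to 341 ± 2.16 FPKM), and Epsti1 (27.2 ± 1.42 to 38.1 ± 1.22 FPKM). The 3 chemokine genes induced by interferon, Cxcl9, Cxcl10 and Cxcl11, which attract T cells, all fell (beside 27.6% of all genes). Their falls were 3.26-fold, 1.80-fold and 1.99-fold.

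Markers of several cell types moved with the groups in the same libraries. Of all genes tested 27.6% were lower in ES and 17.4% higher. Of 6 microglial markers 5 rose, with a summed level of 413 to 425 FPKM in ES and 277 to 279 in SCI, and of 5 macrophage markers 4 rose (623 to 669 against 662 to 682). Most of the macrophage sum is Cd68, the marker not called, at 587 ± 26.1 FPKM in ES and 625 ± 11.7 in SCI. Markers of astrocytes (5 of 6 fell, 2175 to 2330 against 3384 to 3424 FPKM), endothelium (3 of 4 tested fell, 37.2 to 37.9 against 55.9 to 59.9), pericytes and smooth muscle (5 of 5 fell, 126 to 129.6 against 206 to 216) and fibroblasts and meninges (5 of 5 fell, 609.7 to 619.9 against 733 to 747) were lower in sum. Schwann cell markers fell too (5 of 5, 547 to 553 against 1058 to 1070 FPKM). Of the endothelial markers Cldn5 was listed at 0 in all libraries. Among astrocyte markers Aqp4 (26.1, 134 and 29.2 FPKM in ES) and Slc1a3 (15.9, 59.4 and 62.0 in ES), the marker not called, varied widely between ES libraries. All 6 oligodendrocyte markers, all 6 neuronal markers, all 4 red cell markers and all 4 neutrophil markers tested rose, with sums of 12626 to 12644, 267 to 277, 2972 to 3187 and 55.9 to 60.2 FPKM in ES. The sums in SCI were 7923 to 8001, 195 to 195.3, 518 to 546 and 14.2 to 16.3 FPKM. T cell markers were low in both groups (4.05 to 5.43 against 3.20 to 4.58 FPKM in sum, 1 of 5 rose), and all 4 B cell markers lay below the filter. Of 5 markers of plasmacytoid dendritic cells, the main makers of type I interferon in blood, Siglech and Ccr9 lay below the filter, and Bst2 and Irf8 are also on the list described here. The sum of those 5 was 132 to 139.98 FPKM in ES and 178 to 182 in SCI. Of the 5 only Bst2 was called lower, at 64.0 ± 3.07 FPKM against 109 ± 2.47, so the lower sum restates the fall of a listed gene. Il3ra was not called, at 22.8 ± 1.99 FPKM in ES and 22.8 ± 0.685 in SCI. The part of any of these cell types in the interferon-stimulated result was not tested.

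The authors' deposited table gives its own values for the same contrast. The authors' deposited table marks 7 of the 46 genes as significant and down, namely Irf7, Oas3, Oasl, Mx2, Isg15, Herc6 and Isg20. The share over all 32623 genes of the authors' deposited table is 2.31%. That share is over an unlike set, as it includes genes below the filter, which all 46 passed. A q-value under 0.05 stands beside 36 of the 46 in the authors' deposited table, and Oas3, which is marked, has 0.0653 there. Some genes called lower by limma have higher q-values in the authors' deposited table, namely Irf9 (0.303), Eif2ak2 (0.0700), Ifi35 (0.165) and Xaf1 (0.185). The share of all genes under that q-value was not counted. Oasl is at -1.41 on the log2 scale of the authors' deposited table.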

How the data were processed

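The libraries were stranded, paired-end and made from poly(A) RNA, per the labels' protocols. The authors deposited FPKM per library for genes and transcripts, with 0 written as 0.0001, which was set back to 0. The submitters' processing notes name HISAT and StringTie, and the sources used here give no version, role, genome build or annotation release. The deposited tables also hold a ratio of mean FPKM, its log2, and a p-value and a q-value from a test that the sources used here do not name.

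Each column was assigned to its sample through its treatment name and number. Features averaging 0.5 FPKM or more entered the test, made by limma 3.58.1 (R 4.3.3) on log2(FPKM + 1), two-sided, with a mean-variance trend and Benjamini-Hochberg adjustment over all features tested. The pseudocount understates the change of low genes on the log2 scale. Folds are ratios of mean FPKM, and ± is the SD of 3 libraries or, after a log2 change, the SE. FPKM are not whole reads, so no model for read numbers was run. Of the 47 genes listed, all held by the table were kept and described. Values in every library are given for genes at 50 FPKM or more in a group, the 3 largest and 3 smallest changes of each class, and genes not called; from the other pathway lists receptors, kinases and STAT genes are given (some results are not reported here), and up to 3 genes per list by smallest p. Genes named beyond that were chosen after their values were seen. The genes and lists were chosen with earlier results of these data known.

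The fits were tested on simulated data. Alternatives were other pseudocounts, filters and scalings, no trend, the replicate number as a block, a 2-fold minimum, and leaving out each library.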

Additional observations from a re-analysis of the deposited data

How the results depend on the processing

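The 40 falls were kept as the same genes under every alternative run other than median centring, which lost Irf9 (39), and the 2-fold minimum, which left 4. The replicate block and the fit without SCI replicate 2 added Oas3 (41 each). Across the 15 alternatives other than the 2-fold minimum, 41 of 46 genes kept their side of the threshold in all. No called gene changed sign in them, and the other 5 genes were Irf3, Irf8, Irf9, Oas3 and Ifitm2. Genes of the list called higher numbered 1 after quantile normalization, 3 after median centring and 0 to 2 without 1 library. The median log2 change of the list was -0.63 and -0.64 with pseudocounts of 0.1 and 0.01 FPKM, -0.50 with quantile normalization, -0.46 with median centring, -0.62 with totals set equal, and -0.57 to -0.55 without 1 library. With the 2-fold minimum 288 of all genes were lower and 136 higher, and 3 and 0 of the other pathway genes. Of those, quantile normalization called 16 higher and median centring 18, and 2 transcripts of the list were higher after median centring. The cause was not tested.

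The replicate numbers did not pair the libraries: same-numbered libraries deviated together with correlations of -0.03, -0.03 and -0.03, and no library's deviations correlated best with those of its own number. The highest values were 0.076 for ES replicate 1 with SCI replicate 2, 0.078 for ES 2 with SCI 3 and 0.080 for ES 3 with SCI 1. Whether libraries share a batch under other numbers was not tested, and the replicate block does not cover it. With the replicate block 41 listed genes were lower and 0 higher, and 3851 and 2466 of all genes. Depth limits low genes, above all Oas3.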

Other observations

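Close copies of listed genes were looked at after the values above were seen. Oas1f and Oas1g, which lie beside Oas1a in name and family, stood at 3.71 ± 0.237 and 2.18 ± 0.344 FPKM in ES and 7.06 ± 0.121 and 4.67 ± 0.174 in SCI (SD, n = 3). Ifi27l2b, a relative of Ifi27, stood at 87.6, 90.03 and 83.3 FPKM in ES and 322, 272 and 301 in SCI. Ifitm10 stood at 9.98 ± 0.854 FPKM in ES and 7.40 ± 0.833 in SCI. Not all copies were called. Oas1i, Ifitm5 and Ifitm6 did not pass by limma (adjusted p = 0.0688, 0.929 and 0.617), while Gbp1 and Gbp6 were called lower. Oas1d, Oas1e, Oas1h, Ifitm7 and Gbp3 lay below the filter. Ifi44l, the neighbour in name of Ifi44, stood at 3.07, 2.94 and 3.504 FPKM in ES and 10.7, 11.9 and 9.51 in SCI, the lowest log2 change (-1.48 ± 0.09) among the further interferon-induced genes tested.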
